A study of Danio rerio with 6 samples.

Results

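The 6 Dlx homeobox genes dlx1a, dlx2a, dlx3b, dlx4b, dlx5a and dlx6a were described in regenerating zebrafish caudal fins, as 6 of the 31901 Ensembl gene identifiers counted in the study. They were listed by identifier as members of a gene family, with no threshold on their values, though earlier results of these data were known when the list was made. The identifiers are ENSDARG00000013125 for dlx1a, ENSDARG00000079964 for dlx2a, ENSDARG00000014626 for dlx3b, ENSDARG00000071560 for dlx4b, ENSDARG00000042296 for dlx5a and ENSDARG00000042291 for dlx6a. Distal and proximal pieces of the regenerate were compared, each taken 96 hours after amputation from fish carrying the shha:eGFP transgene, a green fluorescent reporter of the Hedgehog ligand gene shha. The reporter marked the distal piece, and both pieces came from transgenic fish. There were 3 distal and 3 proximal samples, numbered 2, 3 and 4 in each region, and each sample pooled tissue from 4 fins.

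Dlx genes encode homeodomain transcription factors related to Distal-less of Drosophila, a gene needed for the outgrowth of fly limbs. In vertebrates most of them lie in linked pairs that are transcribed toward each other, and enhancers between the genes can act on both members of a pair. In the embryo they are known from pharyngeal arches, forebrain, placodes, skeleton and the ectoderm of limb and fin buds, including the apical ectodermal ridge and the median fin fold. The linked pairs here are dlx1a with dlx2a, dlx3b with dlx4b, and dlx5a with dlx6a. RefSeq's gene table for the GRCz12tu assembly, another build than the GRCz11 named for these data, places 0 protein-coding genes between the members of each pair.

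Gene-assigned reads summed to between 20113859 and 23629159 per library, so that 3 reads, taken as the floor, correspond to 0.127 to 0.149 CPM (a gene's reads per 1000000 reads assigned to any gene). Libraries numbered 4 stood apart from those numbered 2 and 3 in both regions on the second principal component of log2 CPM, which held 19.5% of the variance. The gene-name table gives the symbol SHH to 2 identifiers. One of them, ENSDARG00000068567, had 14.0, 19.0 and 20.1 CPM in distal and 6.73, 5.76 and 5.35 CPM in proximal libraries, so its reads were more frequent in the piece marked by the reporter. The other, ENSDARG00000038867, had at most 2 reads in any library and was below the floor.

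In distal tissue 5 of the 6 Dlx genes were higher than in proximal tissue, by 2.32 to 2.98 times, and dlx3b, a gene known for its part in ear and olfactory placode formation, did not pass the test. All 6 genes passed the filter on low counts. Over all 18455 genes tested, 29.7% passed an adjusted p-value of 0.05, with 15.3% higher and 14.4% lower in distal tissue (edgeR quasi-likelihood test, Benjamini-Hochberg adjustment). With the sample number as a block the same 5 Dlx genes were called, where 48.4% of all genes tested passed, 23.3% higher and 25.1% lower in distal tissue. A rise of at least 2-fold with such a p-value was found for 7.24% of all genes tested and for the same 5 Dlx genes. The median log2 fold change, distal over proximal, was 1.40 over the 6 Dlx genes and -0.015 over all genes tested. In these bulk samples, a change in the number of cells that express a gene and a change in RNA per cell cannot be told apart.

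**Figure D1:**
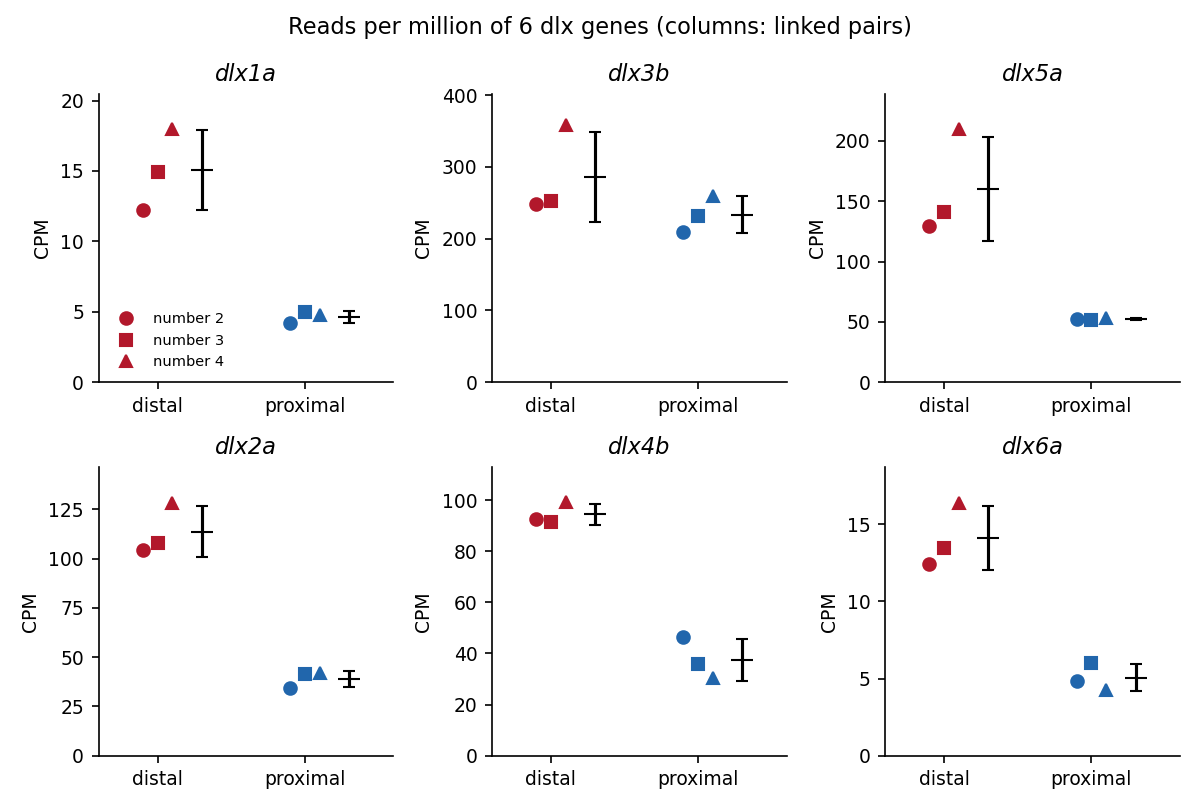
CPM of the 6 Dlx genes in each library (symbols mark the sample numbers), with the mean and SD of each region in black (n = 3). Each column of panels holds a linked pair; every distal value lies above every proximal value except for dlx3b, whose lowest distal value of 247.8 lies below the highest proximal value of 260.1.

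The pair of dlx1a and dlx2a, best known from forebrain and pharyngeal arches, was higher in distal tissue. The gene dlx1a had 12.3, 14.9 and 18.0 CPM in the distal samples numbered 2, 3 and 4, against 4.19, 4.98 and 4.75 CPM in the proximal samples. Its counts were low for the family, with 263 to 361 reads per distal library and 99 to 109 per proximal library, and the regions did not overlap. The log2 fold change, at 1.58 with an SE of 0.18, passed the edgeR test (adjusted p = 0.000468) and lay above that of 96.0% of all genes tested. Its partner dlx2a had 104.5, 107.9 and 128.5 CPM in distal samples and 34.4, 41.3 and 41.7 CPM in proximal samples, again without overlap. On the log2 scale dlx2a was higher by 1.42 with an SE of 0.13 (adjusted p = 0.000169, edgeR).

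The pair of dlx5a and dlx6a, which is expressed in the apical ridge and fin fold of the zebrafish embryo, was also higher in distal tissue. For dlx5a the distal samples held 129.8, 141.1 and 209.7 CPM and the proximal samples 52.4, 51.4 and 53.4 CPM. The proximal samples lay close together (52.4 ± 1.01 CPM), while the distal sample numbered 4 stood above the other distal samples (160 ± 43.2 CPM; SD over the 3 samples of a region). The fit put dlx5a 1.49 log2 units higher in distal tissue, with an SE of 0.19 (adjusted p = 0.000760, edgeR). The less abundantly counted dlx6a had 12.4, 13.5 and 16.4 CPM in distal samples, from 267 to 330 reads, and 4.87, 5.99 and 4.28 CPM in proximal samples, from 92 to 131 reads. Its regions did not overlap either, and the log2 change of 1.37 had an SE of 0.17 (adjusted p = 0.000765, edgeR).

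The members of the third pair, dlx3b and dlx4b, which act together in placode formation in zebrafish, did not share a call. The gene dlx4b had 92.8, 91.6 and 99.2 CPM in distal samples and 46.4, 35.7 and 30.4 CPM in proximal samples. Its distal values were even and its proximal values spread from 30.4 to 46.4 CPM, with the highest in the sample numbered 2. The change of dlx4b came to 1.22 log2 units with an SE of 0.15 (adjusted p = 0.000700, edgeR). In contrast, dlx3b had 247.8, 252.0 and 358.3 CPM in distal samples and 208.7, 231.3 and 260.1 CPM in proximal samples, and the regions overlapped. The distal sample of dlx3b was the higher in 3 of 3 same-numbered pairs in CPM, as it was for 42.2% of all genes tested. Its estimated change was 0.17 log2 units with an SE of 0.17 (adjusted p = 0.502, edgeR). With the sample number as a block the estimate was 0.16 with an SE of 0.08 (adjusted p = 0.145, edgeR). Without the distal sample numbered 4 it was -0.03 with an SE of 0.14 (adjusted p = 0.876, edgeR), the lowest value on leaving out samples. Without the proximal sample numbered 4 it was 0.29 with an SE of 0.18 (adjusted p = 0.288, edgeR), the highest such value. Without both samples numbered 4 the estimate was 0.09 with an SE of 0.11 (adjusted p = 0.602, edgeR).

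**Figure D2:**
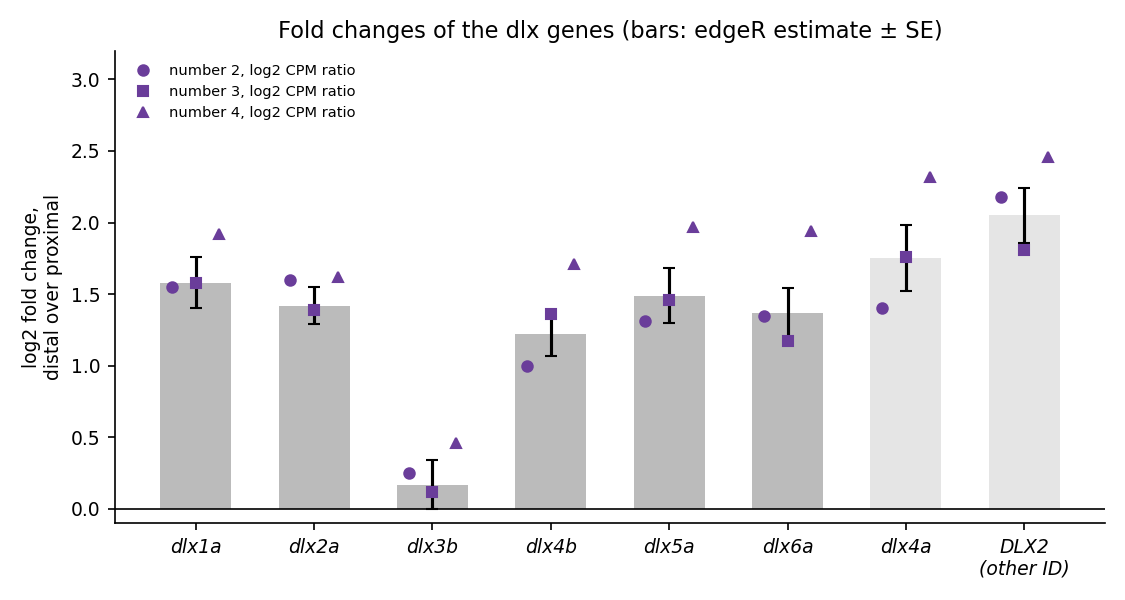
Log2 fold changes of the Dlx genes, distal over proximal. Bars with whiskers give the edgeR estimate and its SE, on the TMM scale (a trimmed mean of log ratios that adjusts libraries for composition); symbols give the log2 ratio of CPM within each sample number, which is not scaled by TMM. The bar of dlx3b reaches 0.17 and those of the other 5 members 1.22 to 1.58; paler bars show the related identifiers dlx4a and DLX2 (other ID).

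Of the 6 Dlx genes, 5 had distal values wholly above their proximal values, and the same held for 30.1% of all genes tested. Their distal excess in 3 of 3 same-numbered pairs follows from this lack of overlap and adds nothing to it. Over all genes tested, 42.2% had the higher distal CPM in 3 of 3 pairs. Within pairs the log2 ratio of CPM of these 5 Dlx genes ran between 1.0 for dlx4b in number 2 and 1.97 for dlx5a in number 4. In CPM, which is not scaled by TMM, this ratio was highest in number 4 for all 6 genes. In that number it was 1.92 for dlx1a, 1.62 for dlx2a, 0.46 for dlx3b, 1.71 for dlx4b, 1.97 for dlx5a and 1.94 for dlx6a. On the TMM-scaled log2 scale number 4 stayed highest for 5 genes, but not for dlx2a. Measured from its region means, dlx2a lay at -0.1 (distal) and -0.19 (proximal) in number 2. In number 4 these values were 0.2 and 0.16, so the distal excess of dlx2a was larger in number 2. The distal library numbered 4 was the highest of the 3 distal libraries for each of the 6 genes. That rank of the distal library held for all 6 genes also on the TMM-scaled log2 scale, where this library lay 0.09 (dlx4b) to 0.44 (dlx5a) above the distal mean. The share of all genes with these patterns was not taken. Libraries numbered 4 also stood apart over all genes tested, on the second principal component, so the patterns are not shown to be particular to Dlx genes. Without both samples numbered 4 the same number of members, 5, passed the test, all higher in distal tissue. In that fit 5242 of the 18455 genes tested passed, 2674 of them higher in distal tissue.

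The ratio of reads within a linked pair does not depend on how libraries are scaled, and comparing it between regions tests whether the members of a pair changed by different amounts. For dlx3b over dlx4b the ratio of reads was 2.67, 2.75 and 3.61 in distal libraries and 4.50, 6.48 and 8.55 in proximal libraries, without overlap. The mean log2 ratio was 1.58 ± 0.24 in distal and 2.65 ± 0.46 in proximal tissue (SD, n = 3 each), and the difference of these means was -1.08. This is a difference of mean log2 read ratios, not of the edgeR log2 fold changes given above, from which it can depart slightly. The difference was -0.75, -1.24 and -1.24 in numbers 2, 3 and 4. The exact two-sided permutation test gave p = 0.1, below which 3 samples per region cannot go. The value adjusted over the 3 linked pairs was 0.3 (Benjamini-Hochberg). This test did not pair samples by number. With that pairing an exact sign-flip test gave p = 0.25, the smallest that 3 same-numbered pairs allow.

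**Figure D3:**
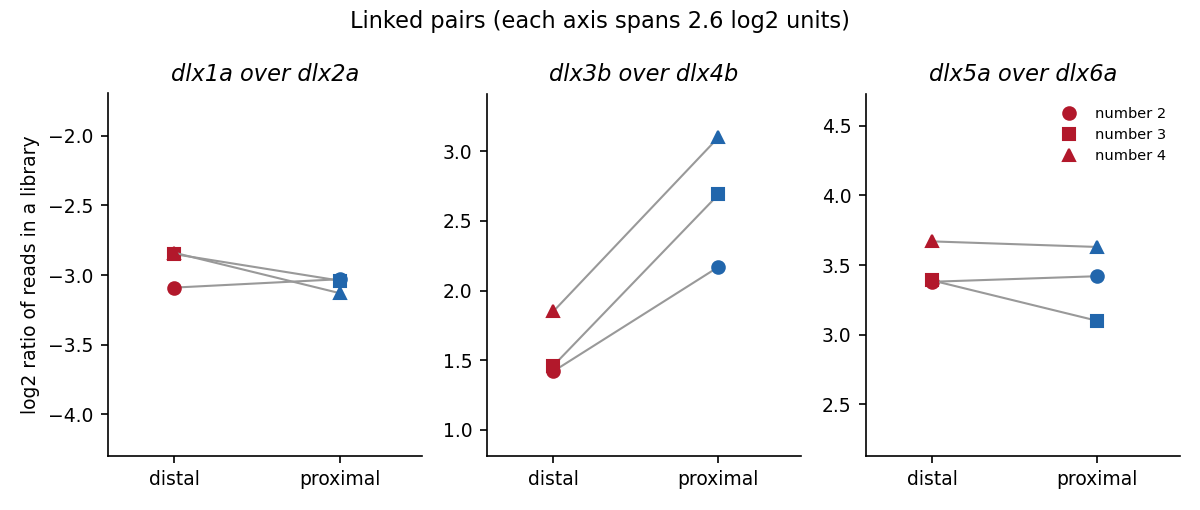
Log2 ratio of the reads of the first over the second gene of each linked pair in every library; lines join samples of the same number, and the 3 axes span equal lengths. The ratio of dlx3b over dlx4b is lower in all 3 distal libraries (1.42 to 1.85) than in the 3 proximal libraries (2.17 to 3.10), while the ranges of the other pairs overlap.

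For dlx1a over dlx2a the log2 ratio was -3.09, -2.85 and -2.84 in distal libraries and -3.03, -3.04 and -3.13 in proximal libraries, and the regions overlapped. The difference between regions was 0.14 (exact two-sided permutation test, p = 0.3, adjusted 0.45), and it was -0.06, 0.19 and 0.29 in numbers 2, 3 and 4. For dlx5a over dlx6a the log2 ratio was 3.38, 3.39 and 3.67 in distal libraries and 3.42, 3.10 and 3.63 in proximal libraries. The difference was 0.10 (exact two-sided permutation test, p = 0.7, adjusted 0.7), and it changed sign when single libraries were left out, to -0.05 without the proximal sample numbered 3. With 3 samples per region such p-values do not show that the members of these pairs changed by equal amounts. The same difference between regions in the mean log2 read ratio was taken for all 15 possible pairs of the 6 genes, as a description and without its sign. It was 1.08 to 1.40 for the 5 pairs that hold dlx3b and 0.04 to 0.32 for the 10 pairs without it. Among those 10, this difference of read ratios was 0.10 and 0.14 for the linked pairs and 0.04 to 0.32 for the 8 unlinked pairs, with a median of 0.16.

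The make-up of the reads of the 6 Dlx genes is given next, as a description. It leaves out dlx4a and the other DLX2 identifier, which are described further below. The 6 genes together had 599.6, 621.0 and 830.1 CPM in distal libraries and 351.0, 370.7 and 394.6 CPM in proximal libraries. The gene dlx3b held 41.7 ± 1.33% of these reads in distal tissue and 62.6 ± 3.22% in proximal tissue, each the mean and SD of 3 libraries. The lower distal share of dlx3b is not a lower level of dlx3b itself. Its mean was 286.0 CPM in distal and 233.4 CPM in proximal tissue. The share of dlx5a was 23.2 ± 1.85% in distal and 14.1 ± 0.730% in proximal tissue, and that of dlx2a 16.8 ± 1.11% and 10.5 ± 0.669% in distal and proximal tissue. For dlx4b the share was 14.1 ± 1.86% in distal and 10.2 ± 2.80% in proximal tissue, and its regions overlapped. The genes dlx1a and dlx6a each held between 1.09% and 2.41% of the reads of the 6 genes in any library. These shares depend on transcript length, which was not used here, so they compare regions and not genes.

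**Figure D4:**
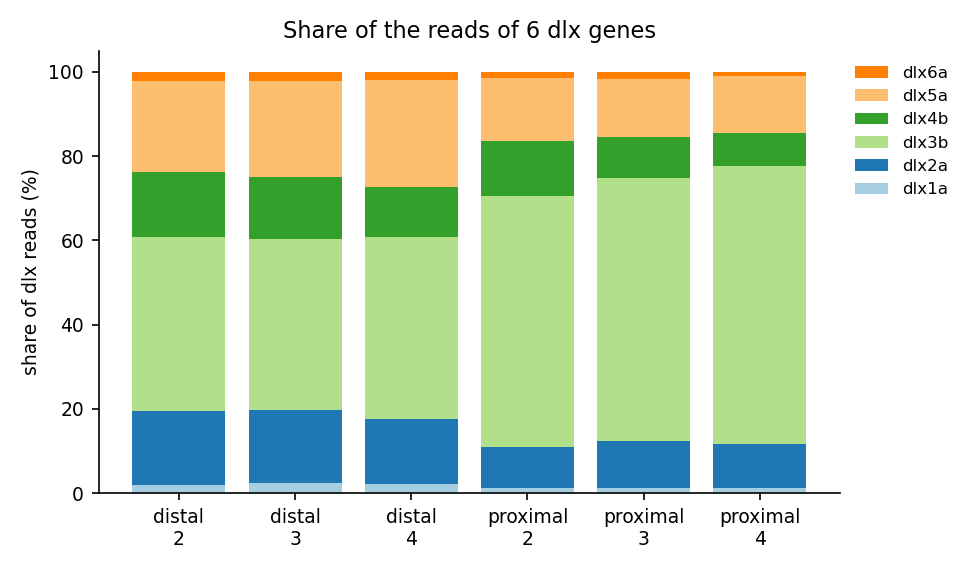
Share of the reads of the 6 Dlx genes taken by each gene, in percent, for every library. The dlx3b segment takes 41.7% on average in the distal and 62.6% in the proximal libraries. These are shares and not levels.

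Further Dlx genes of zebrafish were measured as well. The gene dlx4a had 110.7, 116.7 and 193.8 CPM in distal samples and 41.9, 34.4 and 38.9 CPM in proximal samples, a log2 change of 1.75 with an SE of 0.23 (adjusted p = 0.000957, edgeR). The gene-name table gives the symbol DLX2 to dlx2a and to another identifier, ENSDARG00000017174. That identifier had 54.5, 52.8 and 80.6 CPM in distal samples and 12.0, 15.0 and 14.7 CPM in proximal samples, and it was higher by 2.05 log2 units with an SE of 0.19 (adjusted p = 0.000195, edgeR). As with the 6 members, the distal sample numbered 4 was the highest for both.

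The Dlx genes were set beside lists of genes of the fin fold and its signals. The gene lists here and below were chosen with earlier results of these data known. Over all genes tested, 15.3% were called higher and 14.4% lower in distal tissue, with a median log2 fold change of -0.015. Among regulators and markers of fin fold and apical ectoderm, 10 of 15 symbols matched an identifier and 9 were tested; 8 were higher and 1, the epidermal regulator tp63, was lower in distal tissue, and evx1 had under 3 reads in every library. The median log2 fold change of the 9 was 1.98. Its largest changes were in and2 (3.44, SE 0.21) and and1 (2.01, SE 0.13), which encode proteins of the actinotrichia fibres at the fin tip, and in the signalling ligands wnt5b (2.32, SE 0.09) and bmp4 (2.21, SE 0.12). All 5 Msx factors, homeodomain proteins that can pair with Dlx proteins, were higher in distal tissue with a median log2 fold change of 2.94. The largest of these were msx2b (3.41, SE 0.14), msx2a (2.98, SE 0.18), msx1a (2.94, SE 0.35) and msx3 (1.78, SE 0.15). The edgeR adjusted p-values of these 8 genes were all at or below 0.000606.

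Osteoblast genes, among them targets of Dlx5 in mouse, were mixed. Of 8 symbols 5 matched and 4 were tested. The bone matrix gene spp1 was lower in distal tissue (a log2 change of -2.77 with an SE of 0.33; adjusted p = 0.000603, edgeR), and the alkaline phosphatase gene alpl was higher (0.53, SE 0.11; edgeR adjusted p = 0.00918). The values of sp7 and runx2b, regulators of bone formation, were 0.46 (SE 0.27) and 0.24 (SE 0.12), and neither passed. With the sample number as a block sp7 passed (edgeR adjusted p = 0.00598).

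**Figure D5:**
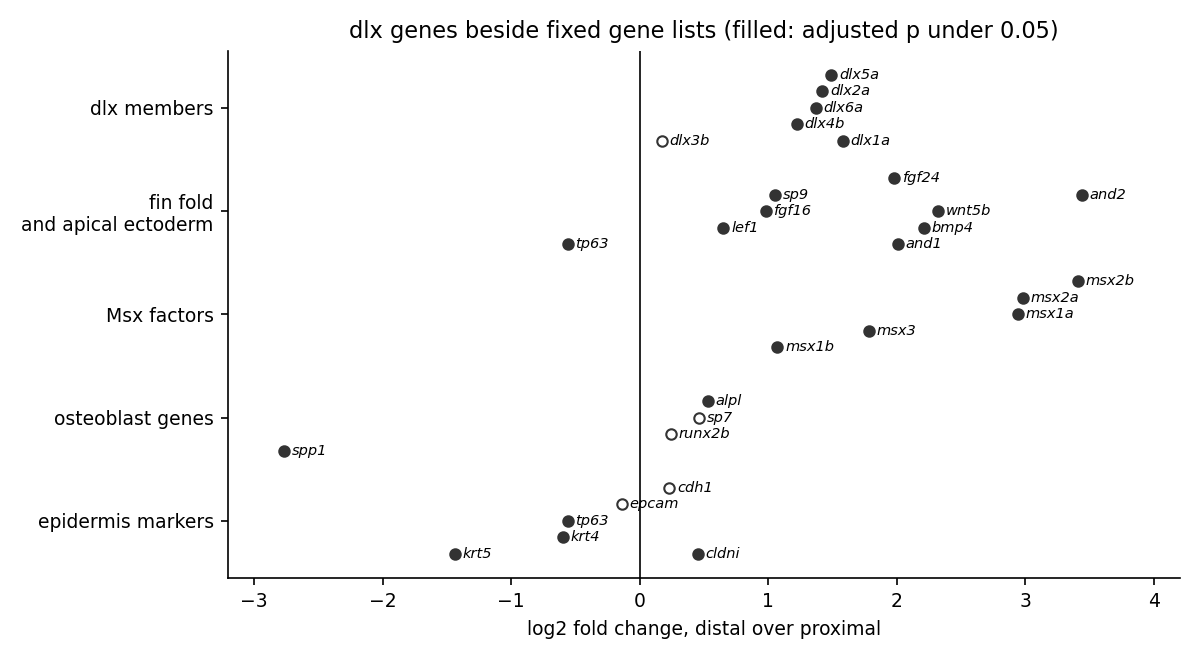
Log2 fold changes, distal over proximal, of the 6 Dlx genes and of the tested members of 4 gene lists; filled circles have an edgeR adjusted p-value under 0.05. The 5 Msx factors and 8 of 9 fin fold genes lie right of 0, and the epidermis markers on both sides.

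Cell type markers also differed between the pieces, and their part in the Dlx values was not tested. An identifier was matched for 6 of 7 epidermis, 4 of 6 fibroblast and blastema, 4 of 6 osteoblast, 3 of 5 leukocyte, 2 of 4 endothelium, 3 of 5 pigment cell and 3 of 5 neuron symbols. The summed level of 6 epidermis markers, mostly krt5, was 22110 to 22690 CPM in distal and 44630 to 48950 CPM in proximal libraries. The mean of krt5 alone was 14910 CPM in distal and 37050 CPM in proximal tissue, so the sum does not speak for all 6 markers. Of these 6, krt5, krt4 and tp63 were lower in distal tissue (log2 fold changes of -1.44, -0.60 and -0.56), cldni was higher (0.45), and cdh1 (0.23) and epcam (-0.14) did not pass the test. Of 4 tested fibroblast and blastema markers, 3 were higher and 1 lower in distal tissue. Those higher were aldh1a2 (2.48) and, already counted among the Msx factors above, msx1b (1.07) and msx3 (1.78). The collagen gene col1a2 was lower (-0.66). The sum of these markers, mostly col1a2, was 3557 to 4321 CPM in distal and 5050 to 5598 CPM in proximal libraries. Of 3 tested osteoblast markers spp1 was lower in distal tissue, and sp7 and runx2b did not pass the test without a block. With the sample number as a block sp7 passed and runx2b did not (edgeR adjusted p = 0.0960 for runx2b). The osteoblast sums were 87.5 to 89.0 CPM in distal and 110.8 to 140.8 CPM in proximal libraries. Their direction was that of spp1, with a mean of 11.9 CPM in distal and 74.2 CPM in proximal tissue. The other means went the other way, at 54.7 and 36.9 CPM for sp7 and 21.7 and 16.9 CPM for runx2b in distal and proximal tissue. The gene bglap had under 3 reads in every library. The 2 tested leukocyte markers were lower in distal tissue, with sums of 23.4 to 29.6 CPM against 32.0 to 46.5 CPM in proximal tissue. All 3 pigment cell markers were lower, with sums of 2.09 to 5.37 CPM in distal and 28.4 to 45.2 CPM in proximal libraries. These sums were mostly pmela, with means of 3.3 CPM in distal and 32.8 CPM in proximal tissue. The gene dct had 1 to 2 reads per distal library, below the floor. For pnp4a there were 3 to 6 reads per distal and 11 to 12 per proximal library. Endothelium markers summed to 13.1 to 17.3 CPM in distal and 11.6 to 18.2 CPM in proximal libraries, and the 1 tested did not pass. Neuron markers summed to 0.838 to 1.29 CPM in distal and 0.381 to 0.791 CPM in proximal libraries, and none of the 3 was counted often enough to be tested.

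The genes with a pattern over the 6 libraries most like that of each Dlx gene were taken from 14574 other genes with a mean of at least 50 reads. As a description, the Pearson correlation of log2 CPM was 0.993 between dlx3b and its nearest gene, TFPI2, which had 2.98, 2.86 and 5.67 CPM in distal and 2.03, 2.56 and 3.63 CPM in proximal samples. Only 44 of these genes were correlated with dlx3b above 0.95. For the other 5 members this number lay between 479 and 873, and their 6 libraries share the split into regions. Their nearest genes were HAPSTR1 for dlx1a, inka1b for dlx2a, calub for dlx4b, glmp for dlx5a and UBTD2 for dlx6a. The log2 fold change of inka1b was 1.04 (SE 0.11), and those of the other 4 lay between 0.30 and 0.48, smaller than those of the Dlx genes they resembled.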

How the data were processed

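Read counts per Ensembl gene identifier were deposited by the authors for each of 6 libraries. TopHat2, HTSeq and the GRCz11 (danRer11) genome are named in the submitters' processing notes; versions, annotation release and strand setting are not given in the sources used here. Without the strand setting, reads from a gene and an antisense partner cannot be told apart. Per the labels' protocols, a stranded mRNA kit was used on total RNA. The line with an empty identifier equalled the sum of the gene counts in each file and, like the 5 lines of unassigned reads, was kept out. Of the 6 members, 6 had an entry in the gene-name table, in part without the paralog letter; the letters come from the list that named the members. List genes were matched to that table by symbol, and symbols without a single match were left out.

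CPM is the count over the sum of gene counts in a library. The test was that of edgeR 4.0.16 (R 4.3.3), run after filterByExpr (minimum count 10), which left 18455 genes and after TMM scaling. It was the quasi-likelihood test without a block, with Benjamini-Hochberg adjustment over all genes and a threshold of 0.05. SE is the absolute log2 fold change over the square root of F. For linked pairs, 0.5 was added to each count before the log2 ratio, and regions were compared by an exact permutation test. Log2 CPM for correlations used a prior count of 2. Alternatives used DESeq2 1.42.0, limma 3.58.1 (voom), other scalings and filters, a sample number block and left-out samples. The code was also run on simulated data that had fewer changed genes than were called here and no effect of the sample number. Its outcome is not given, and no result here rests on it.

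Libraries of a region differed by a chi-square per degree of freedom of 16.9 to 29.9. Each library was counted as a sample, but this value cannot show that the samples were independent. Whether the pools came from separate fish is not stated, so p-values measure the spread between these samples. Same-numbered samples deviated together: after the region mean was taken from log2 CPM, distal and proximal samples correlated at 0.42, 0.56 and 0.68 across genes for numbers 2, 3 and 4. The pairing comes from the numbers in the titles. The members and the gene lists were chosen with earlier results of these data known. Named from each list were at most 4 genes, those with the largest change past the threshold; tp63, evx1, bglap, sp7, runx2b, cdh1, epcam, col1a2, and the second identifiers called DLX2 and SHH were named after their values were seen. Likeness was the highest Pearson correlation for each member.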

Additional observations from a re-analysis of the deposited data

How the results depend on the processing

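The 5 Dlx genes higher in distal tissue were called in each of the 16 alternative fits, with log2 fold changes of 1.42 to 1.70 for dlx1a, 1.31 to 1.54 for dlx2a, 1.06 to 1.40 for dlx4b, 1.24 to 1.62 for dlx5a and 1.16 to 1.54 for dlx6a. The gene dlx3b passed in 0 of the 16 fits, with adjusted p-values between 0.145 and 0.876. Its value ran from -0.034, without the distal sample numbered 4, to 0.29 with library size alone, which moved the median of all genes by 0.12 toward distal tissue. The sample number block changed no call among the 6 genes and raised the number of genes called from 5478 to 8939 (4306 higher and 4633 lower in distal tissue, against 2817 and 2661). Fits with other scalings, filters or tests called 4825 to 5638 genes in total, 2477 to 3640 higher and 1924 to 2773 lower in distal tissue. Leaving out single samples, or both samples of a number (added after seeing the data), gave 2231 to 5242 genes in total, 1243 to 2674 higher and 988 to 2568 lower in distal tissue. The 2 fits with another filter tested 14583 and 27129 genes. The DESeq2 test was run on all 31901 identifiers, and each other fit tested 18455 genes. The difference between regions in the mean log2 read ratio of dlx3b over dlx4b was -1.32 to -0.86 in the 12 alternatives. Its regions did not overlap, so leaving out samples could not change its sign, and the block form leaves the difference as it was. The exact sign-flip test in the block form gave p = 0.25, the smallest that 3 pairs allow. The difference for dlx1a over dlx2a, whose regions overlapped, kept its sign in all 12 alternatives (0.07 to 0.24), but was -0.06 within number 2. That of dlx5a over dlx6a ran from -0.048, without the proximal sample numbered 3, to 0.22, and was -0.00060 without the distal sample numbered 4 and -0.0010 without both samples numbered 3. The cause of these sign changes was not tested. Low counts limit the precision of a ratio, and dlx1a and dlx6a had near 100 reads per proximal library. The part of these counts in the sign changes was not tested. The SD of the log2 ratio over proximal libraries was 0.05 for dlx1a over dlx2a and 0.27 for dlx5a over dlx6a. For dlx3b over dlx4b, with more reads, it was 0.46.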
